A study of Arabidopsis thaliana with 12 samples.

Results

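Seedlings that expressed a mutated form of the transcript elongation factor TFIIS (TFIISmut) were compared with seedlings that expressed the intact factor, in mRNA levels across all genes, after the same estradiol treatment. The 2 groups compared were TFIISmut induced and TFIIS induced, and their ethanol-treated counterparts, TFIISmut mock and TFIIS mock, were used as side values. All 4 groups were Arabidopsis thaliana seedlings of ecotype Columbia, 10 days after sowing, in the tfIIs-1 background, an insertion line of the TFIIS gene. They carried an estradiol-inducible transgene for GFP-tagged TFIISmut or GFP-tagged TFIIS and received 2 mM b-estradiol, the concentration as labelled, or ethanol (mock) for 24 h. Because the controls carry tfIIs-1 too, no group has an unaltered TFIIS gene. The labels do not say which residues are altered in TFIISmut or how many transgenic lines each construct stands for. Each group had 3 libraries, which the authors combined into 1 value per gene, here called a pool. No difference below could therefore be set against the spread between replicates, and none was tested.

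TFIIS acts on RNA polymerase II that has stalled and slid backwards on the DNA. It reaches into the active site with an acidic loop and stimulates the polymerase to cut the protruding RNA end, after which transcription can resume. In yeast and human cells, forms with the acidic residues replaced are known to hold the polymerase in its stalled state and to inhibit elongation. Arabidopsis plants without TFIIS are known to grow almost normally.

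Of 32667 genes with a unique identifier, 7698 were listed at 0 in both induced pools and 1828 in one of them, and 8522 stayed under 5 FPKM (sequenced fragments per length of transcript, scaled to the size of the library) in both. The other 14619 genes were compared by the difference of log2(FPKM + 1), TFIISmut induced minus TFIIS induced. A gene is called higher or lower here when that difference is 1 or more in size, and this scale understates the difference of genes with few FPKM. The TFIISmut induced pool had 780 genes called higher (5.34% of the genes compared) and 376 called lower (2.57%), 7.91% in either direction, against 35 (0.248%) and 111 (0.787%) of 14113 between the mock pools, 1.03% in either direction. Of the nuclear genes that encode proteins, 5.27% were higher and 2.26% lower between the induced pools, and 0.145% and 0.724% between the mock pools. The excess of higher genes grew with the size of the difference: 262 genes were higher and 50 lower by 2 or more, and 94 against 14 by 3 or more. The middle of the distribution lay near 0, with a median of 0.03 and 52.4% of genes above 0. Its robust SD across genes was 0.46, against 0.18 between the mock pools.

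A gene list below is described by the members that reached 5 FPKM in an induced pool. A member with little mRNA elsewhere entered through the pool in which it was high, so the counts and medians of a list describe these members and are no test. The counts are to be read beside the 5.34% of all genes compared that were called higher and the 2.57% called lower.

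The median of the genes called higher was 22.4 FPKM in TFIISmut induced, 5.28 FPKM in TFIIS induced, 5.67 FPKM in TFIISmut mock and 6.74 FPKM in TFIIS mock. The TFIISmut induced pool was the highest of the 4 in 765 of the 780, and the TFIIS induced pool was the lowest in 374. Of the 376 lower genes, TFIISmut induced was the lowest of the 4 pools in 330 and TFIIS induced was the highest in 262, so many of these genes also stood above their mock level in TFIIS induced. Over all genes compared, TFIISmut induced was the highest pool in 44.3% and the lowest in 35.7%.

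**Figure D1:**
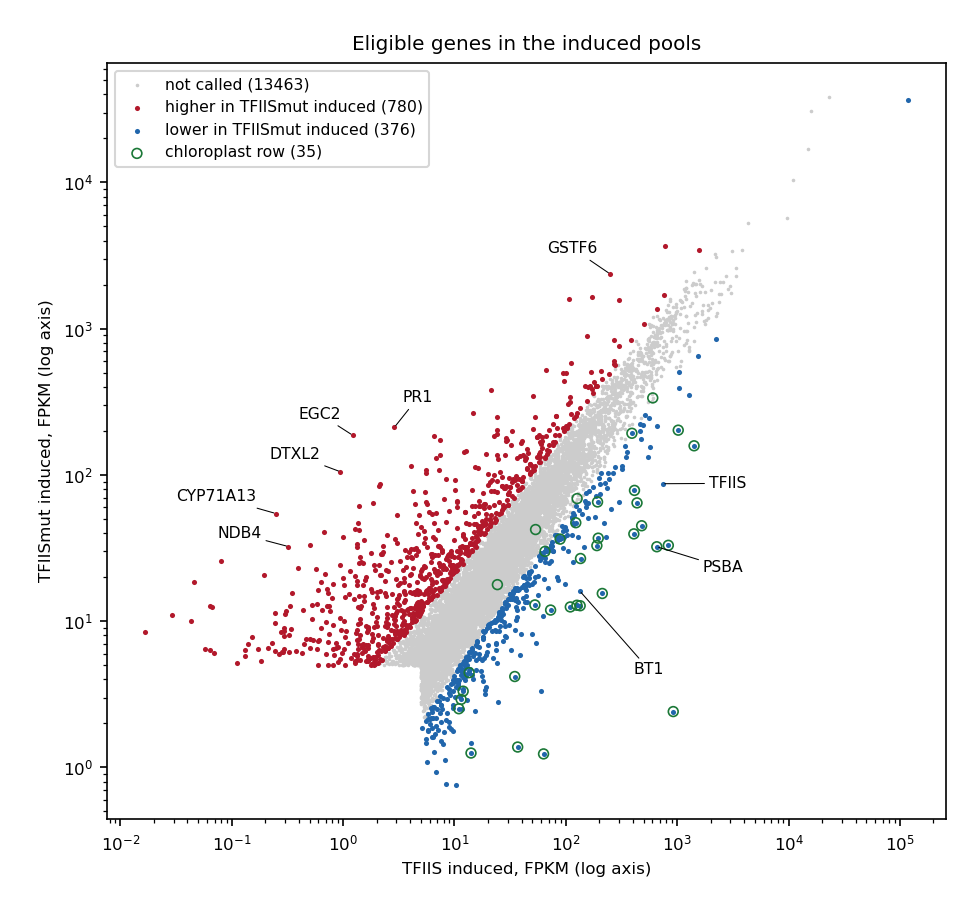
Each point is 1 of 14619 genes, with its FPKM in TFIISmut induced on the vertical axis and in TFIIS induced on the horizontal axis, both logarithmic, 1 pooled value per group. The 780 genes called higher spread far above the diagonal at low TFIIS induced levels, the 376 called lower stay closer to it, and the rows of the chloroplast genome, ringed, lie below it.

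The scaling of the pools changed the balance of higher and lower calls more than their number. A single transcript of 102 bases, AT2G01021, took 36710 FPKM in TFIISmut induced, 117382 FPKM in TFIIS induced, 22162 FPKM in TFIISmut mock and 14286 FPKM in TFIIS mock, which is 3.48%, 11.4%, 2.3% and 1.59% of the FPKM in those pools. It was singled out after its values were seen. Once the 20 genes with the most FPKM were removed and each pool was brought to one total, the median difference of all genes moved by -0.14 and the calls became 617 higher and 560 lower, 52.4% higher in place of 67.5%. Leaving out organelle rows and transcripts under 300 bases in the same way moved the median by -0.15. Differences of about 0.15 or less therefore have no firm direction. The FPKM sums of the pools ranged from 900276 to 1055590 and 13671 to 13939 genes reached 5 FPKM, but reads per library are not known, so no counting interval was computed.

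The TFIIS gene itself (AT2G38560, at chr2:16134543-16136695 in TAIR10.1) had 87 FPKM in TFIISmut induced, 742 FPKM in TFIIS induced, 17.6 FPKM in TFIISmut mock and 21.1 FPKM in TFIIS mock. Both induced pools stood above both mock pools, and the level in TFIIS induced was 8.53 times that in TFIISmut induced. Reads from the transgene and from the interrupted gene are not separated in this row. The lower level of this mRNA in TFIISmut induced and the mutation separate the induced groups at the same time, and their parts in the differences below cannot be told apart.

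**Figure D2:**
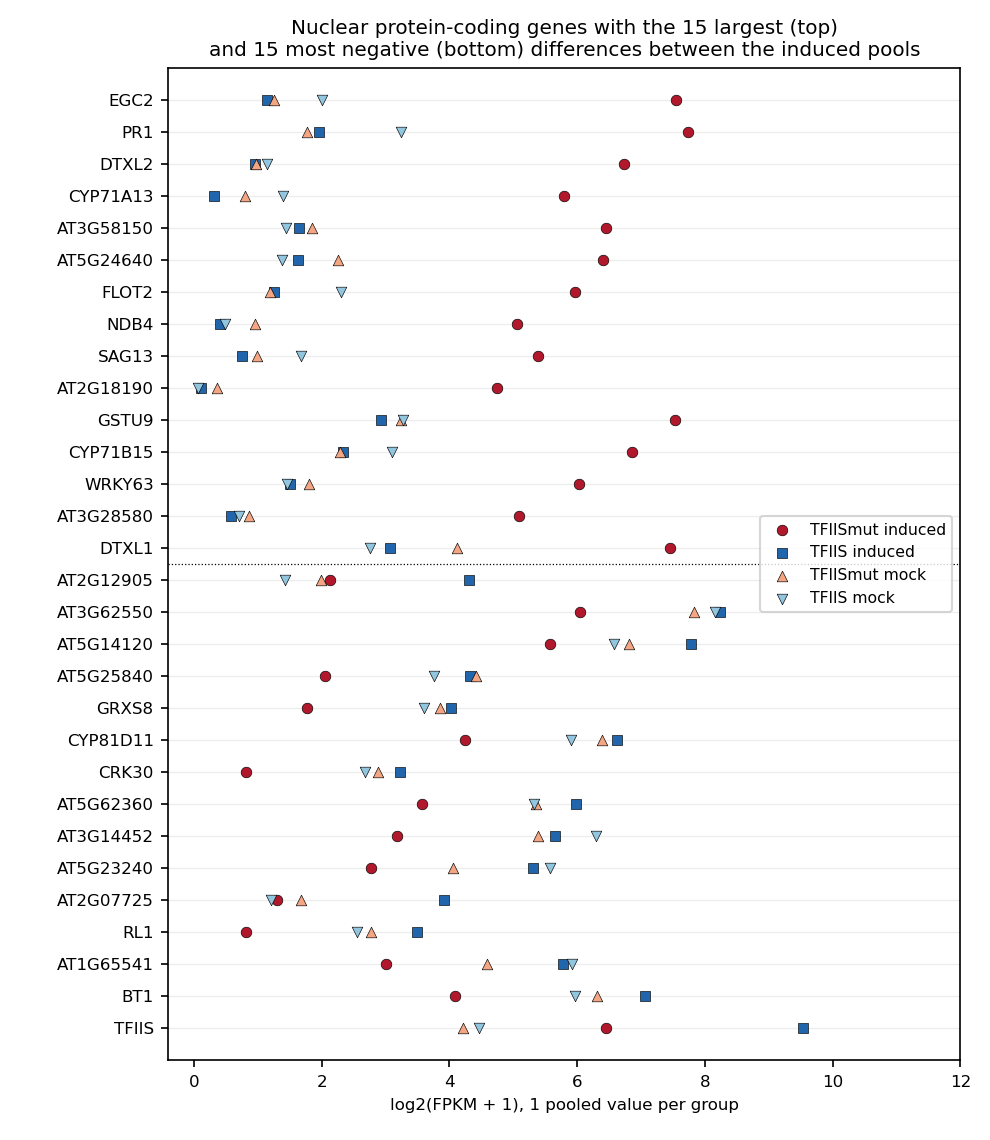
log2(FPKM + 1) of the nuclear protein-coding genes with the 15 largest and the 15 most negative differences between the induced pools, with 1 point per pool. At the top TFIISmut induced stands apart to the right while the other 3 pools lie together; at the bottom it is mostly the lowest of the 4, and TFIIS has its highest value in TFIIS induced.

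Salicylic acid is a defence hormone made in the chloroplast from chorismate by ICS1. It acts through the receptors NPR1, NPR3 and NPR4 and turns on pathogenesis-related genes, and the EDS1 and PAD4 lipase-like proteins promote its synthesis after pathogen recognition. EGC2, annotated as plant natriuretic peptide A, had 187 FPKM in TFIISmut induced, 1.22 FPKM in TFIIS induced, 1.39 FPKM in TFIISmut mock and 3.01 FPKM in TFIIS mock. Only the TFIISmut induced pool was high, at 153 times the TFIIS induced level, the largest positive difference of log2(FPKM + 1) of all genes (6.4). PR1, the textbook marker of the salicylic acid response, had 212 FPKM in TFIISmut induced, 2.89 FPKM in TFIIS induced, 2.41 FPKM in TFIISmut mock and 8.44 FPKM in TFIIS mock, a difference of 5.77. TFIIS mock, with the highest of the 3 low values, still had a small fraction of the TFIISmut induced level. Of 13 response genes compared, out of 15 in the table, 12 were higher and none lower, with a median difference of 2.80 beside 0.03 over all genes. AIG1, a GTPase-like gene named for its induction by bacteria, had 42.1 FPKM in TFIISmut induced, 1.39 FPKM in TFIIS induced, 2.1 FPKM in TFIISmut mock and 2.5 FPKM in TFIIS mock. NIMIN-1, which binds NPR1 and restrains it, had 25.3 FPKM in TFIISmut induced, 1.44 FPKM in TFIIS induced, 0.95 FPKM in TFIISmut mock and 2.36 FPKM in TFIIS mock. The pattern of a single high pool held for both. LURP1, needed for resistance to a downy mildew, had 113 FPKM in TFIISmut induced, 15.3 FPKM in TFIIS induced, 10.5 FPKM in TFIISmut mock and 32.6 FPKM in TFIIS mock, with TFIIS mock the second highest. PR5 was the smallest difference among the 12, 1.24. Between the mock pools the same list went the other way: of its 7 members compared there, 5 were called lower in TFIISmut mock, with a median of -1.45.

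The genes that make the hormone or lead to it were higher too, by less. Of 18 genes of salicylic acid synthesis and EDS1 signalling compared, out of 21 in the table, 12 were higher and none lower, and each of the 18 lay above 0, with a median difference of 1.47. ICS1, the synthesis enzyme, had 42.3 FPKM in TFIISmut induced, 7.12 FPKM in TFIIS induced, 8.33 FPKM in TFIISmut mock and 9.24 FPKM in TFIIS mock, a difference of 2.42. GH3.12, which conjugates isochorismate to glutamate in the next step, had 20.8 FPKM in TFIISmut induced, 0.68 FPKM in TFIIS induced, 1.38 FPKM in TFIISmut mock and 2.46 FPKM in TFIIS mock. FMO1, which makes the systemic signal N-hydroxypipecolic acid, had 18.5 FPKM in TFIISmut induced, 0.631 FPKM in TFIIS induced, 0.59 FPKM in TFIISmut mock and 1.25 FPKM in TFIIS mock. In all 3 the TFIISmut induced pool stood alone. The transcription factors SARD1 and CBP60G, which activate ICS1, differed by 2.78 and 2.11. EDS1 had 47.4 FPKM in TFIISmut induced, 8.46 FPKM in TFIIS induced, 8.85 FPKM in TFIISmut mock and 9.32 FPKM in TFIIS mock, and its partner PAD4 differed by 1.85 while SAG101, the other partner, differed by 0.87 and was not called. The receptors were at the low end of the list: NPR3 differed by 1.2, NPR4 by 0.58 and NPR1 by 0.47.

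Camalexin is the main antimicrobial indole compound of Arabidopsis and is made from tryptophan. Of 16 genes of camalexin and tryptophan synthesis, all of them compared, 12 were higher and none lower, with a median of 1.45. CYP71A13, which makes indole acetonitrile on the way to camalexin, had 54.4 FPKM in TFIISmut induced, 0.249 FPKM in TFIIS induced, 0.737 FPKM in TFIISmut mock and 1.63 FPKM in TFIIS mock. CYP71B15, the last enzyme of the pathway, had 116 FPKM in TFIISmut induced, 4.03 FPKM in TFIIS induced, 3.89 FPKM in TFIISmut mock and 7.6 FPKM in TFIIS mock. Both were low in the 3 other pools, with TFIIS induced below TFIIS mock. GSTF6, a glutathione transferase of the same pathway, was among the most abundant mRNAs, with 2368 FPKM in TFIISmut induced, 249.8 FPKM in TFIIS induced, 253 FPKM in TFIISmut mock and 484 FPKM in TFIIS mock. CYP71A12 had 63.2 FPKM in TFIISmut induced, 5.67 FPKM in TFIIS induced, 13.9 FPKM in TFIISmut mock and 28.1 FPKM in TFIIS mock, so its 2 mock pools were above TFIIS induced. CYP71A12 and CYP71A13, and GSTF6 and GSTF7, are close copies, and reads may be shared within each pair. The tryptophan enzymes differed by less, TSA1 by 1.65, PAT1 by 1.53 and ASB1 by 1.37. CYP79B2, which draws tryptophan into indole metabolism, differed by 1.71, whereas its copy CYP79B3 differed by 0.18 and was not called. Glucosinolate synthesis, which shares this branch point, had 4 of 22 genes higher, led by the regulator MYB51 (1.75) and the sulfotransferase SOT16 (1.51), and a median of 0.04.

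The other group at the top of the list was the mitochondrial retrograde response. When respiration is disturbed, plant cells induce nuclear genes for the alternative oxidase and for alternative NAD(P)H dehydrogenases, which bypass parts of the respiratory chain, and the membrane-bound factor NAC017 and its relative NAC13 are known to act there through a promoter element called the mitochondrial dysfunction motif. Of 15 genes on this list compared, out of 19 in the table, 10 were higher, none was lower and each of the 15 lay above 0, with a median difference of 1.68. NDB4, an external NAD(P)H dehydrogenase, had 32.4 FPKM in TFIISmut induced, 0.322 FPKM in TFIIS induced, 0.939 FPKM in TFIISmut mock and 0.398 FPKM in TFIIS mock. AOX1A, the stress-inducible alternative oxidase, had 199 FPKM in TFIISmut induced, 32.8 FPKM in TFIIS induced, 47.8 FPKM in TFIISmut mock and 42 FPKM in TFIIS mock, and AOX3, a minor form, had 19.6 FPKM in TFIISmut induced, 1.01 FPKM in TFIIS induced, 0.342 FPKM in TFIISmut mock and 0.728 FPKM in TFIIS mock. All 3 were high in TFIISmut induced alone. BCS1, an ATPase of the outer mitochondrial membrane, differed by 3.75, and the sulfotransferase SOT12 by 3.03. HSP23.5, a small heat shock protein of the mitochondrion, had 142 FPKM in TFIISmut induced, 12.1 FPKM in TFIIS induced, 21.9 FPKM in TFIISmut mock and 16 FPKM in TFIIS mock. The constitutive dehydrogenase NDB1 differed by 0.02, with 14 FPKM in TFIISmut induced and 13.8 FPKM in TFIIS induced. NAC13 differed by 2.92, while NAC017, whose activity is known to be set by release from the membrane, differed by 0.18.

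The window of 300 bases before the annotated start was searched for 9 motifs in all nuclear protein-coding genes compared, on both strands. The mitochondrial dysfunction motif, in its palindromic form (CTTG, 5 bases of any kind, CAAG) and in a second form (CTTG, 5 bases, CACG), was added after the data had been seen. The palindromic form was in the window of 33 of 753 higher genes (4.38%), 3 of 323 lower genes (0.929%) and 89 of all 14299 genes (0.622%). Read the other way, 33 of the 89 carriers (37.1%) were higher, with a median difference of 0.54, beside 5.27% of nuclear protein-coding genes higher. Between the mock pools 2 of 63 carriers were higher, beside 0.145% of such genes, with a median of 0.00. The second form was in 2.39% of the higher, 0.31% of the lower and 0.413% of all genes. Of the 15 genes with the largest differences 5 hold the palindromic form, so sites of that form are printed here with 8 bases on each side. They run 5′ to 3′ on the strand on which the gene is read, the fixed letters of the motif in capitals (RefSeq annotation of TAIR10.1):
AT3G58150, chr3:21534140-21534168: aaaatttcCTTGcacggCAAGgtctgatt
AT5G24640, chr5:8436264-8436292: attaatttCTTGgtggaCAAGcatgtttg
AT2G18190, chr2:7916134-7916162: gacgtttcCTTGtgacgCAAGctccttcc
AT3G28580, chr3:10715369-10715397: atataaaaCTTGactaaCAAGtttgatta
DTXL1 (site at 203 to 215 bases), chr2:1339663-1339691: tattagaaCTTGattccCAAGtaatcttt
DTXL1 (site at 144 to 156 bases), chr2:1339604-1339632: tatacgaaCTTGgtcccCAAGtatatttc
AT2G21640, chr2:9254319-9254347: tttagtaaCTTGctctcCAAGgagatcta
anac044, chr3:229002-229030: gtatctggCTTGgggagCAAGgttagcgg
SRO3, chr1:26550663-26550691: tcagaaaaCTTGctgtcCAAGttttcgct
NDB2, chr4:2572340-2572368: cgatctggCTTGgccacCAAGattgtttg
NDA1, chr1:2204026-2204054: tgtcgtttCTTGcgcatCAAGttctgctg
AT5G54450, chr5:22109476-22109504: tccaaaaaCTTGgcggaCAAGgcaatttc
AT3G58150, annotated as an OPA3 protein, a family known from mitochondria, had 86.4 FPKM in TFIISmut induced, 2.13 FPKM in TFIIS induced, 2.62 FPKM in TFIISmut mock and 1.71 FPKM in TFIIS mock. AT5G24640, an uncharacterized gene, had 83.4 FPKM in TFIISmut induced, 2.09 FPKM in TFIIS induced, 3.76 FPKM in TFIISmut mock and 1.61 FPKM in TFIIS mock. AT2G21640, annotated as a marker of oxidative stress and chosen after its values were seen, was the most abundant of these mRNAs, with 381 FPKM in TFIISmut induced, 21.1 FPKM in TFIIS induced, 29.9 FPKM in TFIISmut mock and 18.8 FPKM in TFIIS mock. In all 3 genes TFIIS induced was close to the mock pools. The site of AT3G58150 lies 13 to 25 bases before the annotated start and that of AT2G18190 lies 270 to 282 bases before it, so the distance was not fixed. A match is a description of the letters only.

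A group of 6 higher genes with one of these motifs belongs to a family annotated with DUF295, a domain known from plant proteins of unknown role. The family was looked at after its members' values were seen. Of its 69 genes in the table, 11 could be compared and 8 of these were higher, all on chromosome 5, and none lower. All 8 reached 5 FPKM in TFIISmut induced alone, and 28 of the 69 were listed at 0 there. AT5G54560 had 18.4 FPKM in TFIISmut induced, 0.046 FPKM in TFIIS induced, 0.216 FPKM in TFIISmut mock and 0.156 FPKM in TFIIS mock, and AT5G55270 had 6.42 FPKM in TFIISmut induced, 0.174 FPKM in TFIIS induced, 0.517 FPKM in TFIISmut mock and 0.297 FPKM in TFIIS mock. Each of the 8 stayed under 1 FPKM in TFIIS induced and under 20 FPKM in TFIISmut induced.

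Export and detoxification genes formed a further group. MATE transporters carry small molecules across membranes, and 3 of the 8 compared, all on one stretch of chromosome 2, were higher (median 0.75). Most of the 8 lie on that stretch, and the list does not hold the whole family. AT2G04066, also annotated as a MATE protein, is not on it. The count and median therefore describe these members and not the family. DTXL2 had 105 FPKM in TFIISmut induced, 0.944 FPKM in TFIIS induced, 0.97 FPKM in TFIISmut mock and 1.22 FPKM in TFIIS mock. DTXL1 had 174 FPKM in TFIISmut induced, 7.36 FPKM in TFIIS induced, 16.4 FPKM in TFIISmut mock and 5.77 FPKM in TFIIS mock, so its TFIISmut mock level was also above that of both TFIIS pools. DTX1, known to export toxic compounds, had 182 FPKM in TFIISmut induced, 54.6 FPKM in TFIIS induced, 52.1 FPKM in TFIISmut mock and 42.9 FPKM in TFIIS mock. Between DTXL1 and DTXL2, AT2G04063 was listed at 0 in all 4 pools, and DTXL3, next to DTXL2, differed by 0.86 and was not called. The promoter windows of EGC2, CYP71A13, DTXL1 and DTXL2, which are among the 15 genes with the largest differences, are printed below to show which of the searched letters they hold and where. Capitals mark any of the 9 searched motifs. One of the 2 W-box forms was TTGACC. The other W-box form was TTGACT, with the shared core of the motif. The element bound by TGA factors was searched as TGACG. The G-box, bound by bZIP and bHLH factors, was searched as CACGTG. For the evening element of clock-regulated genes the letters were AAATATCT. The GCC-box of ethylene response factors was searched as GCCGCC. The TATA box, the core promoter element, was searched as TATAAA. Together with the 13-letter forms above, each was read on both strands, and none is contained in another:
EGC2: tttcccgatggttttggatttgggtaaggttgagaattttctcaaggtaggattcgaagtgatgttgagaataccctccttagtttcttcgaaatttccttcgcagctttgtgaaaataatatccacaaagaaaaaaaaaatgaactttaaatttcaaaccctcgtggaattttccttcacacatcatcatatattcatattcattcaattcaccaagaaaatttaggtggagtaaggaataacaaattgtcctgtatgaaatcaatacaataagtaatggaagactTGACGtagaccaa
CYP71A13: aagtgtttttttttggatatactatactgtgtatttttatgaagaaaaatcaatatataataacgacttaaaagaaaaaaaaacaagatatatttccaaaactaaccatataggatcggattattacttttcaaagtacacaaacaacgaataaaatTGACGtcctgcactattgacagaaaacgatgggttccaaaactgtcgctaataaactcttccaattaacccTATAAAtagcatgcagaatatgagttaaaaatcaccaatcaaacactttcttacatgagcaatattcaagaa
DTXL1: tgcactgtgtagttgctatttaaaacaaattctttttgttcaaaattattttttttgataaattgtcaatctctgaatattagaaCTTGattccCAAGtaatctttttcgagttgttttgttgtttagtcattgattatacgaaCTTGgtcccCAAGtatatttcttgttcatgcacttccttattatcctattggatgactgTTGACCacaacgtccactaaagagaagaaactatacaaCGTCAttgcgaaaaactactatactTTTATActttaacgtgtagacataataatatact
DTXL2: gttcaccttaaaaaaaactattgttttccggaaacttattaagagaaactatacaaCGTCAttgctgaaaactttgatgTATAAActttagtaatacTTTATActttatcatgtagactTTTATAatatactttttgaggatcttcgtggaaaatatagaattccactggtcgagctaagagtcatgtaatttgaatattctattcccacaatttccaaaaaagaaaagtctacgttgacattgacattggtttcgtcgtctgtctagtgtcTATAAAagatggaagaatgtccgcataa
They lie at chr2:8091737-8092036, chr2:13111989-13112288, chr2:1339469-1339768 and chr2:1355884-1356183, on the minus strand in TAIR10.1, 5′ to 3′. These 4 windows were chosen out of 8 read, all 4 hold TGACG, and the windows of PR1, FLOT2, NDB4 and BT1 do not; PR1, with the second largest difference, holds none of the searched motifs. Over all windows of this length 22.4% hold TGACG and 51.6% hold TATAAA. The palindromic motif is in the window of DTXL1, 144 to 156 and again 203 to 215 bases before the start, and not in that of DTXL2.

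Glutathione transferases, which attach glutathione to reactive compounds, had 13 of 40 genes higher and 1 lower, with a median of 0.67. GSTU9 had 184 FPKM in TFIISmut induced, 6.6 FPKM in TFIIS induced, 8.48 FPKM in TFIISmut mock and 8.64 FPKM in TFIIS mock, a difference of 4.61. GSTF2 reached 3685 FPKM in TFIISmut induced, against 785 FPKM in TFIIS induced, 420.1 FPKM in TFIISmut mock and 686 FPKM in TFIIS mock, so TFIISmut induced stood far above the other 3 pools for this abundant mRNA. The tau, phi and lambda classes all had members among the higher genes, GSTL1 with a difference of 3.23. UDP-glycosyltransferases had 9 of 55 higher and none lower, among them UGT74E2, an auxin-conjugating enzyme known from oxidative stress (1.99), and UGT71B6 (2.48). Cytochrome P450 genes had 16 of 83 higher and 4 lower. CYP81D8 (2.27) was among the higher ones, while CYP81D11 of the same subfamily was among the lowest genes of all, with 17.9 FPKM in TFIISmut induced, 97.5 FPKM in TFIIS induced, 82.9 FPKM in TFIISmut mock and 59 FPKM in TFIIS mock. The medians of the glycosyltransferases (0.06) and P450 genes (0.09) lay within the 0.15 that rescaling moves and turned below 0 under it, so no direction is given for either family. The list of antioxidant enzymes and their regulators had 2 of 19 genes higher (median 0.22), both of them zinc finger regulators, ZAT12 (1.93) and ZAT10 (1.27); the catalase CAT2 differed by -0.09 and the superoxide dismutase CSD1 by 0.78.

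FLOT2, a flotillin of membrane microdomains, had 61.4 FPKM in TFIISmut induced, 1.38 FPKM in TFIIS induced, 1.29 FPKM in TFIISmut mock and 3.96 FPKM in TFIIS mock, and its neighbour FLOT1 had 77.6 FPKM in TFIISmut induced, 4.21 FPKM in TFIIS induced, 3.42 FPKM in TFIISmut mock and 5.67 FPKM in TFIIS mock. The pair shared the pattern of a single high pool. SAG13, an early senescence marker, had 40.9 FPKM in TFIISmut induced, 0.679 FPKM in TFIIS induced, 0.975 FPKM in TFIISmut mock and 2.2 FPKM in TFIIS mock. Of 12 genes of chlorophyll breakdown and senescence, 3 were higher, with a median of 0.32, and NYC1, which starts the breakdown of chlorophyll b, differed by -0.9.

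Transcription factors of the WRKY family bind the W-box and are known as regulators of defence. Of 37 compared, 16 were higher and none lower, with a median of 0.63, which was 0.25 with no minimum FPKM and 1.1 with a minimum of 20 FPKM. WRKY63 had 64.2 FPKM in TFIISmut induced, 1.84 FPKM in TFIIS induced, 2.48 FPKM in TFIISmut mock and 1.75 FPKM in TFIIS mock. WRKY70, which acts downstream of NPR1, had 140.0 FPKM in TFIISmut induced, 19.2 FPKM in TFIIS induced, 13.4 FPKM in TFIISmut mock and 32.2 FPKM in TFIIS mock. WRKY46 differed by 3.41, WRKY51 by 3.14, and WRKY33, an activator of camalexin genes, by 1.28. In the promoter windows, TTGACT was in 37.1% of the higher genes, 16.7% of the lower genes and 21.6% of all, and TTGACC in 23.9%, 9.6% and 14.1%. The share of genes called higher was 3.78% with no copy of either, 6.73% with 1, 12.8% with 2 and 17.6% with 3 or more. The evening element AAATATCT was in 6.64% of the higher, 10.8% of the lower and 6.01% of all windows. CACGTG stood at 8.5%, 6.5% and 7.87%, GCCGCC at 3.45%, 0.929% and 2.43%, TGACG at 25.4%, 20.4% and 22.4%, and TATAAA at 51.9%, 50.5% and 51.6%.

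NAC factors had 10 of 36 genes higher and none lower (median 0.40, or 0.12 with no minimum FPKM), led by anac044, JUB1 (2.74) and NAC13. ERF and DREB factors had 8 of 42 higher and none lower, led by ERF071, known from low oxygen, with 28.8 FPKM in TFIISmut induced, 2.21 FPKM in TFIIS induced, 1.03 FPKM in TFIISmut mock and 0.778 FPKM in TFIIS mock. Their median of 0.14 does not separate them from the background once the pools are rescaled. MYB factors had 3 of 27 higher and 2 lower. MYB15, an activator of lignin-type defence compounds, differed by 1.86, and MYB60, a guard cell factor, by -1.44, with 3.96 FPKM in TFIISmut induced and 12.4 FPKM in TFIIS induced.

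Calcium sensors of the calmodulin family had 14 of 33 genes higher and none lower, with a median of 0.75. CML12, a touch-induced gene, had 885 FPKM in TFIISmut induced, 156 FPKM in TFIIS induced, 100.5 FPKM in TFIISmut mock and 138 FPKM in TFIIS mock. CML10 had 583 FPKM in TFIISmut induced, 111 FPKM in TFIIS induced, 117 FPKM in TFIISmut mock and 167 FPKM in TFIIS mock. CML45 had 36 FPKM in TFIISmut induced, 1.54 FPKM in TFIIS induced, 1.98 FPKM in TFIISmut mock and 3.79 FPKM in TFIIS mock. TFIISmut induced was the highest pool in each, whatever the level of the gene. The canonical calmodulins were abundant in all pools and not called, CAM7 with a difference of 0.31 and CAM6 of 0.54. Several calmodulin genes are near copies of each other, and the labels do not say how shared reads were counted.

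Cell surface receptors gave a mixed picture. Among cysteine-rich receptor-like kinases, 7 of 20 were higher and 2 lower, with a median of 0.81. CRK36 had 10.4 FPKM in TFIISmut induced, 0.531 FPKM in TFIIS induced, 0.575 FPKM in TFIISmut mock and 0.622 FPKM in TFIIS mock, whereas CRK30 had 0.765 FPKM in TFIISmut induced, 8.34 FPKM in TFIIS induced, 6.35 FPKM in TFIISmut mock and 5.41 FPKM in TFIIS mock and was one of the lowest genes of all. Of 19 immune receptors and early signalling genes, 6 were higher and none lower (median 0.59). The kinase MPK11 had 17.5 FPKM in TFIISmut induced, 1.02 FPKM in TFIIS induced, 1.02 FPKM in TFIISmut mock and 2.12 FPKM in TFIIS mock. The chitin receptor LYK5 differed by 1.81, the receptor-like protein AtRLP23 by 2.31, the co-receptor BAK1 by 0.21 and the flagellin receptor FLS2 by -0.14, the last 2 not called. Intracellular immune receptors had 1 of 12 higher, RPP13L4 (1.05), and a median of -0.25. Plant U-box ubiquitin ligases had 5 of 34 higher and none lower (median 0.25), led by PUB54 with 9.03 FPKM in TFIISmut induced, 0.296 FPKM in TFIIS induced, 0.287 FPKM in TFIISmut mock and 0.433 FPKM in TFIIS mock.

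**Figure D3:**
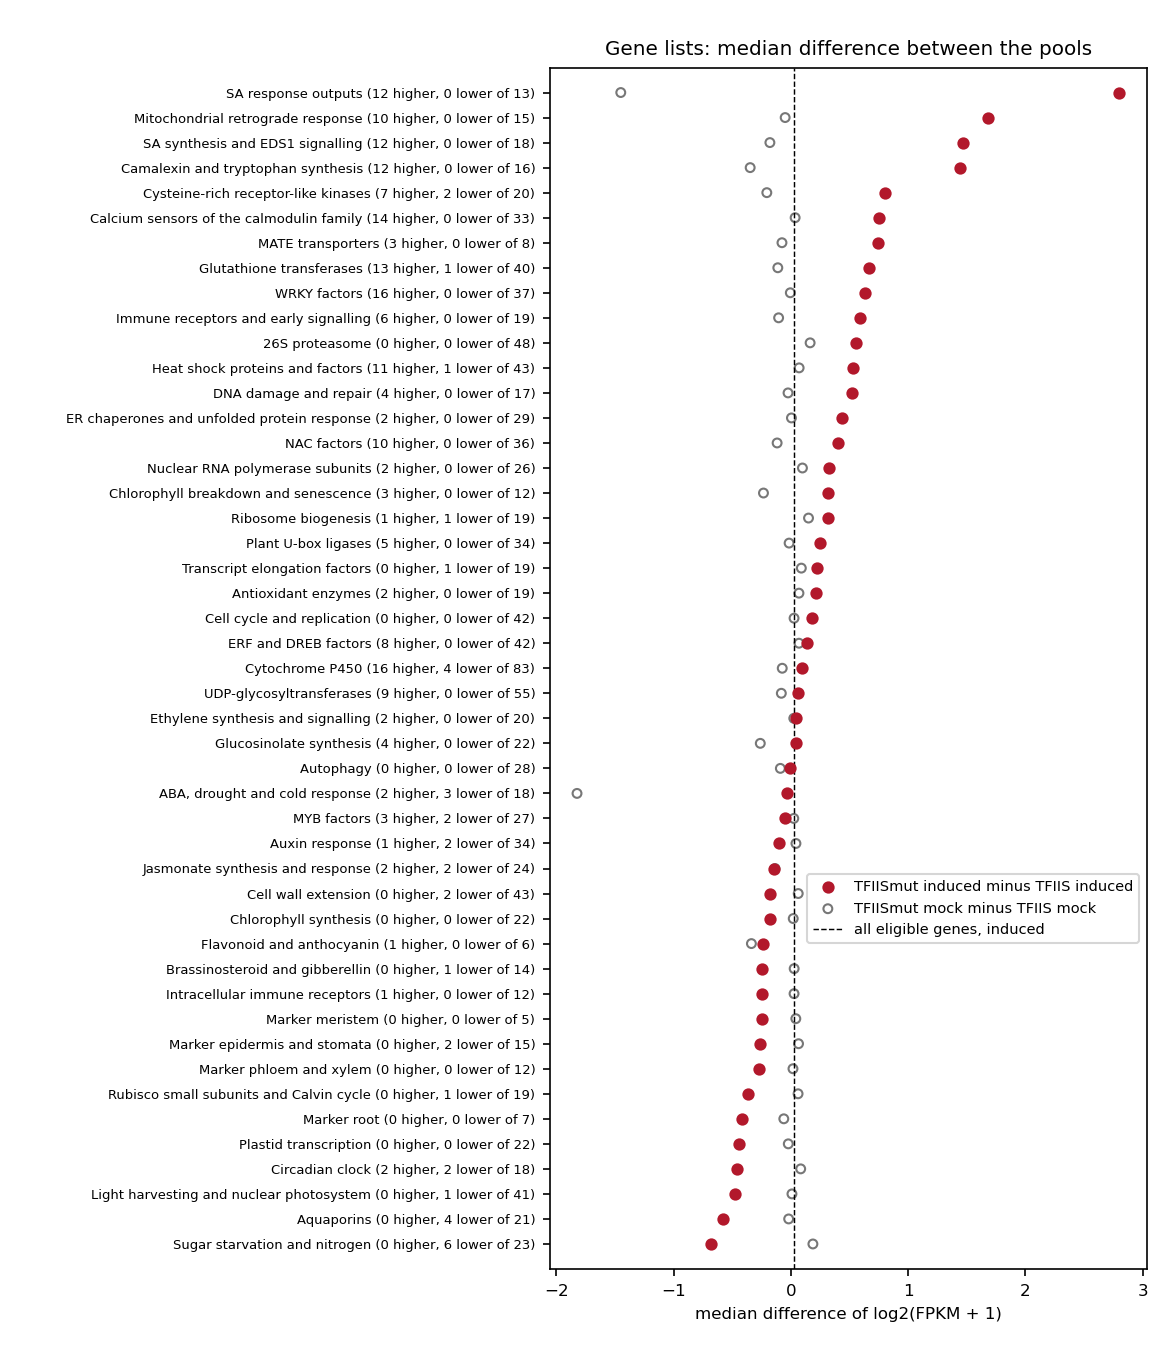
Median difference of log2(FPKM + 1) in each of 47 gene lists, filled points for TFIISmut induced minus TFIIS induced and open points for TFIISmut mock minus TFIIS mock, with the counts of members called beside each name. Salicylic acid outputs (2.80), mitochondrial retrograde response (1.68), salicylic acid synthesis (1.47) and camalexin (1.45) stand apart at the top, and sugar starvation and nitrogen (-0.68) and aquaporins (-0.58) at the bottom.

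Genes of protein quality control came next. Of 48 genes of the 26S proteasome, the protease that degrades ubiquitin-tagged proteins, none was called higher or lower. Still, 46 lay above 0, with a median of 0.55 and no value at 1 or more. Between the mock pools all 48 lay above 0 as well, mostly by smaller steps, from 0.02 (RPN3B) to 0.29 (PAD1). The shared sign was therefore present without estradiol too. PBD2, a core subunit just under the threshold, had 179 FPKM in TFIISmut induced, 89.1 FPKM in TFIIS induced, 110.1 FPKM in TFIISmut mock and 96 FPKM in TFIIS mock. RPT3, an ATPase of the base, had 349.6 FPKM in TFIISmut induced, 174 FPKM in TFIIS induced, 209 FPKM in TFIISmut mock and 188 FPKM in TFIIS mock. In both, TFIISmut mock was the second highest pool. Heat shock proteins and factors had 11 of 43 higher and 1 lower, with a median of 0.53, HSP23.5 at the head and the stress-inducible HSP90 gene HSP81-1 at 1.59. ER chaperones and the unfolded protein response had 2 of 29 higher, the leucine zipper gene BZIP60 (1.49) and NAC062, and a median of 0.44. Autophagy had none of 28 called and a median of -0.01.

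Genes of the transcription machinery itself were examined because TFIIS works with RNA polymerase II. Of 19 transcript elongation factors, TFIIS was the only one called (lower), and the median was 0.22. SPT16 of the histone chaperone FACT differed by 0.43, IWS1 by 0.61 and ELF7 of the PAF1 complex by -0.04. Of 26 subunits of nuclear RNA polymerases, 2 were higher and none lower, with a median of 0.32. This count, and that of ribosome biogenesis below, are to be read beside the 5.27% of nuclear protein-coding genes called higher. NRPB10, a small shared subunit, had 184 FPKM in TFIISmut induced, 66.6 FPKM in TFIIS induced, 148 FPKM in TFIISmut mock and 80.9 FPKM in TFIIS mock, so it stood high in both TFIISmut pools. NRPB9A had 6.79 FPKM in TFIISmut induced, 2.7 FPKM in TFIIS induced, 4.79 FPKM in TFIISmut mock and 4.47 FPKM in TFIIS mock. The largest subunit NRPB1 differed by -0.07, and the small subunits NRPB4 by 0.94 and NRPB12 by 0.9, while NRPA2 of polymerase I differed by -0.54. NRPB4 and NRPB12 are genes of 1000 to 2000 bases, a class with a median of 0.19 over all nuclear protein-coding genes compared. NRPB1 and NRPA2 are genes of 5000 bases or more, a class with a median of -0.27. The part of gene length in these values was not tested. Ribosome biogenesis had 1 of 19 higher, the nucleolin NUCL2 (1.56), 1 lower, the fibrillarin FIB2 (-1.32), and a median of 0.32. FIB2 had 88.4 FPKM in TFIISmut induced, 223 FPKM in TFIIS induced, 87 FPKM in TFIISmut mock and 80.8 FPKM in TFIIS mock, so TFIIS induced was the pool that stood apart.

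DNA damage and repair had 4 of 17 genes higher and none lower, with a median of 0.52. The cell cycle inhibitor AT1G07500 had 7.9 FPKM in TFIISmut induced, 0.296 FPKM in TFIIS induced, 0.956 FPKM in TFIISmut mock and 1.53 FPKM in TFIIS mock, and GMI1, a known early target of double-strand breaks, had 5.05 FPKM in TFIISmut induced, 1.83 FPKM in TFIIS induced, 3.05 FPKM in TFIISmut mock and 1.4 FPKM in TFIIS mock. Cell cycle and replication had none of 42 called and a median of 0.18. The circadian clock had 2 of 18 genes higher and 2 lower, with a median of -0.46. LHY and CCA1, the morning factors, had 7.53 and 6.82 FPKM in TFIISmut induced, against 0.461 and 1.49 FPKM in TFIIS induced. They had 1.32 and 3.82 FPKM in TFIISmut mock, against 0.738 and 1.71 FPKM in TFIIS mock. Both thus also stood higher in the TFIISmut line without estradiol, though neither was called there. The evening genes APRR3 and ELF4 differed by -1.52 and -1.02. ELF4 had 44.9 FPKM in TFIISmut induced, 92.4 FPKM in TFIIS induced, 56.3 FPKM in TFIISmut mock and 98.5 FPKM in TFIIS mock, so both TFIISmut pools lay below both TFIIS pools. The hour of harvest is not stated in the labels.

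Among the lower genes, those that respond to sugar and nitrogen supply led. Of 23 genes of sugar starvation and nitrogen, 6 were lower, none was higher and 20 lay below 0, with a median of -0.68. BT1 (AT5G63160, chr5:25333172-25335570), a BTB and TAZ domain protein repressed by sugar, had 16.1 FPKM in TFIISmut induced, 133 FPKM in TFIIS induced, 78.1 FPKM in TFIISmut mock and 61.7 FPKM in TFIIS mock. It was the lowest nuclear protein-coding gene after TFIIS, at -2.98, and TFIISmut induced was below all other pools. Its relative BT2, a central gene in nitrogen use, had 110.4 FPKM in TFIISmut induced, 322 FPKM in TFIIS induced, 265 FPKM in TFIISmut mock and 233 FPKM in TFIIS mock. ASN1, the dark-induced asparagine synthetase, had 8.1 FPKM in TFIISmut induced, 39.2 FPKM in TFIIS induced, 23.2 FPKM in TFIISmut mock and 9.5 FPKM in TFIIS mock, so TFIIS induced was the highest pool and TFIISmut induced lay near TFIIS mock. STR15, the senescence and dark marker also known as SEN1, had 37.8 FPKM in TFIISmut induced, 129.8 FPKM in TFIIS induced, 105 FPKM in TFIISmut mock and 52.2 FPKM in TFIIS mock. There TFIISmut induced was the lowest pool and both TFIIS induced and TFIISmut mock stood well above TFIIS mock. The nitrate reductases NIA1 and NIA2 differed by -0.78 and -0.73 and were not called.

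Aquaporins, the water channels, had 4 of 21 genes lower and none higher, with 18 below 0 and a median of -0.58. PIP1-5 had 31.6 FPKM in TFIISmut induced, 93.6 FPKM in TFIIS induced, 71 FPKM in TFIISmut mock and 55.7 FPKM in TFIIS mock. TIP2-1 of the vacuolar membrane had 257 FPKM in TFIISmut induced, 518 FPKM in TFIIS induced, 483 FPKM in TFIISmut mock and 300.3 FPKM in TFIIS mock. PIP1-2, with 396 FPKM in TFIISmut induced and 489 FPKM in TFIIS induced, differed by -0.3. Growth-related lists had few calls, to be read beside the 2.57% of all genes called lower. Auxin response had 1 of 34 higher and 2 lower (median -0.10), cell wall extension 2 of 43 lower (-0.18) and brassinosteroid and gibberellin 1 of 14 lower, GA3OX1, a gibberellin synthesis enzyme (-1.24), with a median of -0.24. The small auxin genes SAUR62 and SAUR24 differed by -1.23 and -1.16.

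Photosynthesis genes of the nucleus lay below 0 by small steps. Light harvesting and nuclear photosystem genes had 1 of 41 called, lower, and 39 of 41 below 0, with a median of -0.48. That gene, LHB1B1, had 391 FPKM in TFIISmut induced, 1045 FPKM in TFIIS induced, 1115 FPKM in TFIISmut mock and 1010.2 FPKM in TFIIS mock. TFIISmut induced was low and the other 3 pools were alike. The list of Rubisco small subunits and Calvin cycle had 1 of 19 lower (median -0.37), the aldolase AT4G26530. This aldolase had 25.5 FPKM in TFIISmut induced, 116 FPKM in TFIIS induced, 125 FPKM in TFIISmut mock and 184 FPKM in TFIIS mock. List members were matched by gene name, and whether this aldolase works in the chloroplast was not examined. Chlorophyll synthesis had none of 22 called (median -0.18). Of 22 genes of plastid transcription, the nuclear-encoded polymerases and sigma factors that read the chloroplast genome, none was called, 20 lay below 0 and the median was -0.44. SIGC and SIGD differed by -0.85 and -0.78.

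The remaining genes among the 15 lowest did not fall into one process. AT5G62360, an invertase or pectin methylesterase inhibitor, had 10.9 FPKM in TFIISmut induced, 62.4 FPKM in TFIIS induced, 39.8 FPKM in TFIISmut mock and 39.1 FPKM in TFIIS mock. RL1, a RAD-like MYB protein, had 0.761 FPKM in TFIISmut induced, 10.3 FPKM in TFIIS induced, 5.81 FPKM in TFIISmut mock and 4.89 FPKM in TFIIS mock. GRXS8, a glutaredoxin, had 2.41 FPKM in TFIISmut induced, 15.4 FPKM in TFIIS induced, 13.5 FPKM in TFIISmut mock and 11.1 FPKM in TFIIS mock. In these 3, TFIIS induced was above both mock pools as well. AT5G25840, annotated only with a domain of unknown function, had 3.16 FPKM in TFIISmut induced, 18.9 FPKM in TFIIS induced, 20.4 FPKM in TFIISmut mock and 12.5 FPKM in TFIIS mock. AT3G62550, with 65 FPKM in TFIISmut induced, 301 FPKM in TFIIS induced, 227 FPKM in TFIISmut mock and 285 FPKM in TFIIS mock, and AT5G14120, a major facilitator transporter, with 46.6 FPKM in TFIISmut induced, 220.1 FPKM in TFIIS induced, 111 FPKM in TFIISmut mock and 94.5 FPKM in TFIIS mock, were the most abundant; AT5G14120 overlaps an annotated antisense transcript, and the labels do not say how strand was counted. AT2G07725, a ribosomal L5P family gene, had 1.46 FPKM in TFIISmut induced, 14 FPKM in TFIIS induced, 2.19 FPKM in TFIISmut mock and 1.3 FPKM in TFIIS mock. It lies in the stretch of mitochondrial DNA inserted in chromosome 2, and its reads may come from either copy. AT3G14452 and AT2G12905 are models of 117 and 219 bases, a length at which FPKM are uncertain.

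Rows of the chloroplast genome were lower throughout. Chloroplast transcripts carry few poly(A) tails, so a poly(A)-selected library samples them poorly. All 35 rows compared lay below 0, 31 were called lower, and the median was -2.39. The row of the tRNA genes TRNF and TRNL.1 had 2.41 FPKM in TFIISmut induced, 922 FPKM in TFIIS induced, 15.5 FPKM in TFIISmut mock and 7 FPKM in TFIIS mock, the largest negative difference of the table (-8.08). PSBA, the D1 protein of photosystem II, had 32.2 FPKM in TFIISmut induced, 656 FPKM in TFIIS induced, 27.1 FPKM in TFIISmut mock and 25.3 FPKM in TFIIS mock. RBCL, the large Rubisco subunit, had 15.5 FPKM in TFIISmut induced, 213 FPKM in TFIIS induced, 17.5 FPKM in TFIISmut mock and 13.9 FPKM in TFIIS mock. PSBN had 33 FPKM in TFIISmut induced, 833 FPKM in TFIIS induced, 68 FPKM in TFIISmut mock and 40.7 FPKM in TFIIS mock. In all 4 rows the TFIIS induced pool was far above the other 3. Of the 31 lower rows, TFIIS induced was the highest pool in all 31 and TFIISmut induced the lowest in 5. Chloroplast rows made up 0.16% of the FPKM in TFIISmut induced and 0.963% in TFIIS induced, beside 0.158% in TFIISmut mock and 0.113% in TFIIS mock. Of 6 mitochondrial rows, 4 were lower, with a median of -1.47. Whether this reflects the plants or the library preparation was not tested.

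**Figure D4:**
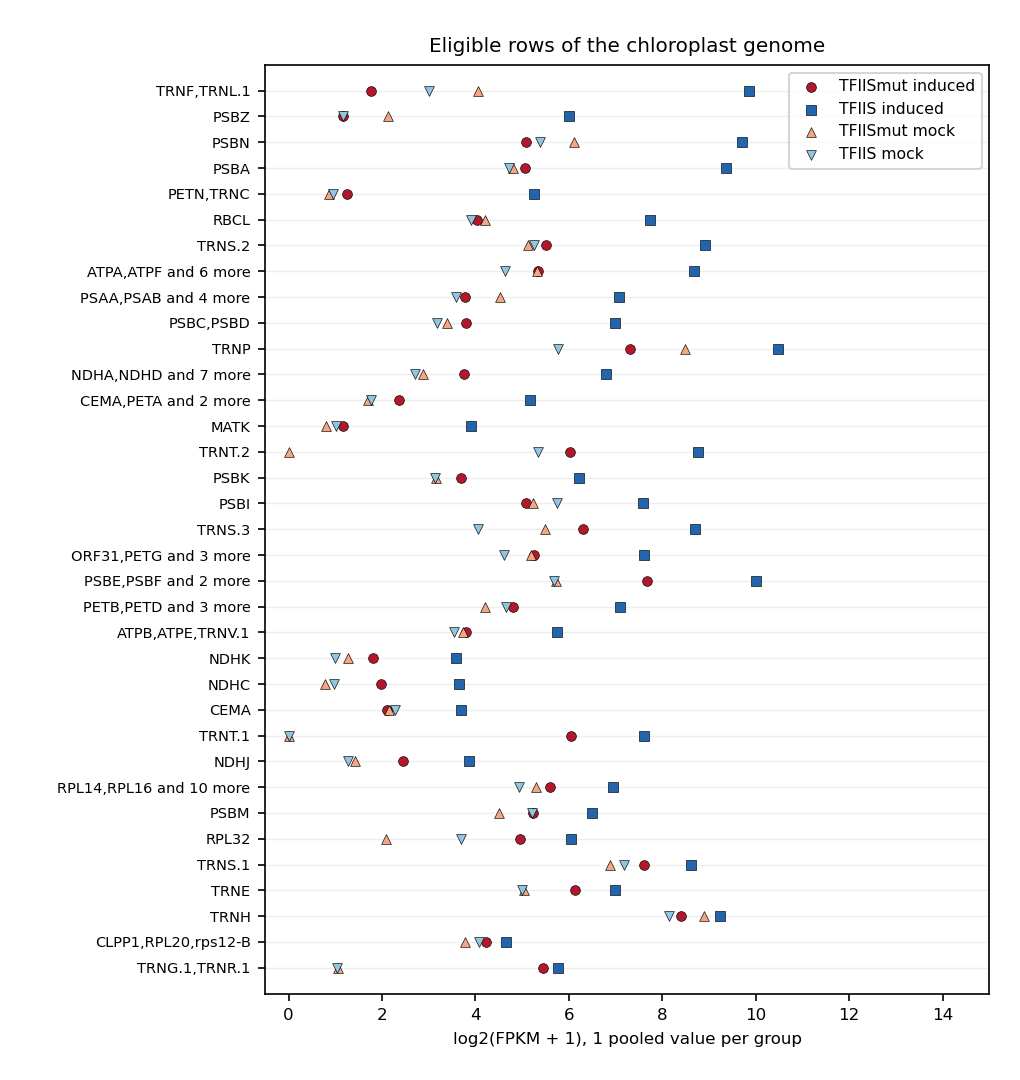
log2(FPKM + 1) of the 35 chloroplast rows compared, with 1 point per pool; rows with several gene names share 1 value. TFIIS induced is the highest pool in each of the 31 rows called lower, and TFIISmut induced is the lowest in 5 of them.

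Non-coding nuclear rows showed no common direction. Of 134 long non-coding RNAs, 11 were higher and 4 lower (median -0.19), of 66 pseudogenes 9 and 4 (median -0.03), and of 37 small nucleolar and nuclear RNAs 5 and 7 (median -0.09). The largest was AT1G21525, a pseudogene, with 22.9 FPKM in TFIISmut induced, 0.389 FPKM in TFIIS induced, 0.984 FPKM in TFIISmut mock and 0.875 FPKM in TFIIS mock, and the other rows without a protein with the largest differences were AT4G23215 (3.25) and AT5G55420 (3.18). AT7SL-1, an RNA of the signal recognition particle that the annotation counts with the protein-coding genes, had 267 FPKM in TFIISmut induced, 14.8 FPKM in TFIIS induced, 26.9 FPKM in TFIISmut mock and 15.6 FPKM in TFIIS mock. AT2G01023, a model of 120 bases, had 1599.6 FPKM in TFIISmut induced, 107 FPKM in TFIIS induced, 142 FPKM in TFIISmut mock and 188 FPKM in TFIIS mock, and AT2G01021 on the same chromosome end went the other way between the induced pools. AT7SL-1 and AT2G01023 were chosen after their values were seen. SNOR30, a small nucleolar RNA, had 3.33 FPKM in TFIISmut induced, 59.7 FPKM in TFIIS induced, 13.7 FPKM in TFIISmut mock and 4.15 FPKM in TFIIS mock, and here TFIIS induced was the odd pool. A further 48 rows reached 5 FPKM in one induced pool and were listed at 0 in the other, 25 of them at 0 in TFIISmut induced and 23 at 0 in TFIIS induced. Small nucleolar RNAs gave 14 of these rows, and a 0 can be a failed estimate. The 18S ribosomal RNA row AT3G41768 had 228 FPKM in TFIISmut induced, was listed at 0 in TFIIS induced and had 112 and 67.1 FPKM in TFIISmut mock and TFIIS mock. The zinc finger gene AT3G46070 had 6.92 FPKM in TFIISmut induced, was listed at 0 in TFIIS induced and had 0.0689 and 0.0589 FPKM in TFIISmut mock and TFIIS mock.

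Gene structure went with the size of the difference across the whole table. Nuclear protein-coding genes called higher had a median gene length of 1725 bases and 2 exons, and 31.3% had a single exon; lower genes had 2111 bases, 4 exons and 26.6%, and all 14300 compared had 2429.5 bases, 5 exons and 13.2%. The median difference was 0.23 for 876 genes under 1000 bases, 0.19 from 1000 to 2000, 0.08 from 2000 to 3000, -0.05 from 3000 to 5000 and -0.27 for 1161 genes of 5000 bases or more. Of the longest group, 17.7% lay above 0, against 47.7% of it between the mock pools, where the medians ran from 0.04 to -0.01 over the same lengths. Of 207 genes of 8000 bases or more, 199 lay below 0, with a median of -0.44 (-0.06 between the mock pools). The share called higher was 15.4% under 1000 bases and 0.861% at 5000 bases or more, and the share called lower 7.08% and 2.5%. In genes of 5000 bases or more the median level was 11.2 FPKM in TFIISmut induced and 13.7 FPKM in TFIIS induced. It was 12.4 FPKM in each mock pool. Both steps from the mock level are small, and their direction depends on how the pools are scaled. Whether TFIISmut induced fell, TFIIS induced rose or both was not tested.

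The order by length was also seen within levels and exon classes. Among genes at 20 to 100 FPKM in the mean of the mock pools, the medians were 0.19 under 2000 bases and -0.28 at 5000 or more; among genes of 100 FPKM or more they were 0.30 and -0.23, the last over 24 genes. Among genes with 6 exons or more they were 0.15 and -0.28, and single-exon genes gave 0.20 under 2000 bases and 0.08 from 3000 to 5000. RNA fragmentation or coverage along the transcripts could not be examined in a table of FPKM, and its part in the trend was not tested. By level, 35.8% of 902 genes under 5 FPKM in the mean of the mock pools were called higher, but the minimum selects these, since a gene under 5 FPKM in both mock pools enters only through a high induced pool. In the classes above, from 5 to 10, 10 to 50, 50 to 200 and 200 FPKM or more, the share called higher was 4.35%, 2.69%, 3.37% and 2.64%, and the median difference -0.05, 0.00, 0.14 and 0.23.

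**Figure D5:**
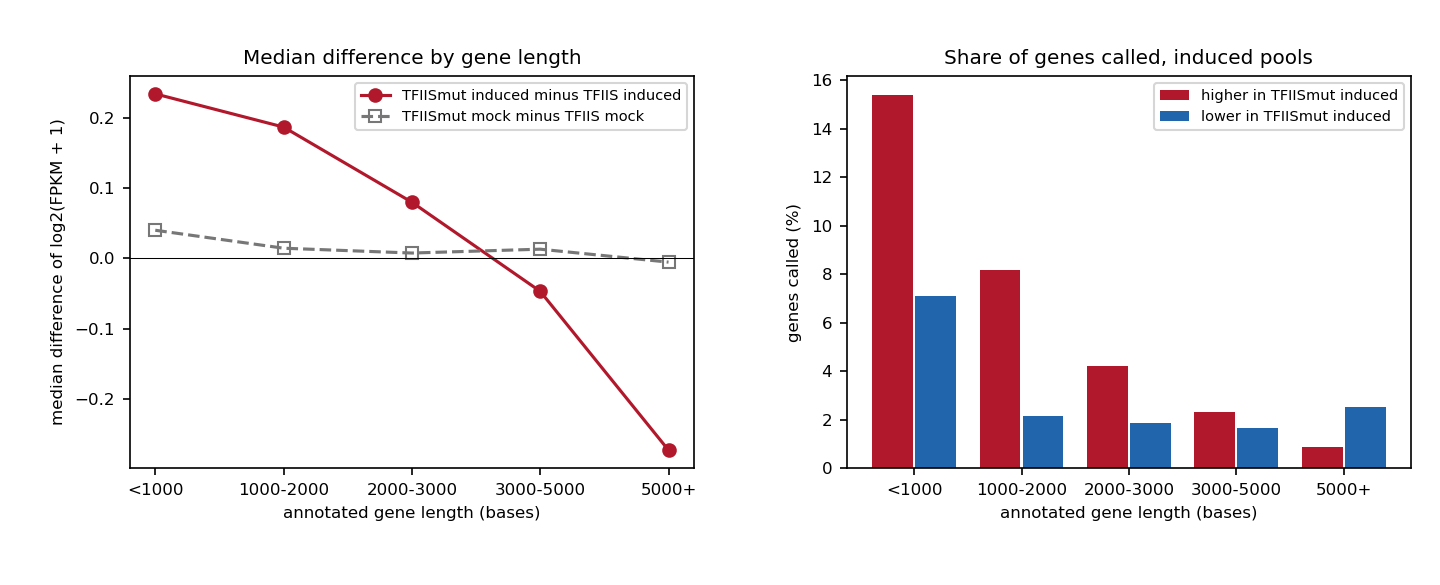
Left, the median difference of log2(FPKM + 1) in classes of annotated gene length, for TFIISmut induced minus TFIIS induced and TFIISmut mock minus TFIIS mock; right, the share of genes called higher and lower between the induced pools. The induced medians step down from 0.23 to -0.27 while the mock medians stay between 0.04 and -0.01.

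Higher genes lay beside each other more often than genes in general. Of 779 higher nuclear genes, 130 (16.7%) had another higher gene as the next annotated gene on either side, against 821 of 14551 (5.64%) of all genes compared; for lower genes it was 25 of 341 (7.33%) against 359 (2.47%). Many neighbours are copies of one family, and overlapping models can share reads. There were 12 runs of 3 or more higher genes, the longest of 4. On chromosome 1, AT1G72910, AT1G72920, TIR and AT1G72940, all with a TIR domain of immune receptors, differed by 1.61, 1.66, 1.68 and 1.2. TIR, the most abundant of them, had 187 FPKM in TFIISmut induced, 57.8 FPKM in TFIIS induced, 44.7 FPKM in TFIISmut mock and 68.9 FPKM in TFIIS mock. On chromosome 5, AT5G52730, AT5G52740, AT5G52750 and AT5G52760, of a copper transport or heavy metal family, formed another, and AT5G52750 had 65.8 FPKM in TFIISmut induced, 10.5 FPKM in TFIIS induced, 7.84 FPKM in TFIISmut mock and 15.4 FPKM in TFIIS mock. EGC2, AT2G18670 and AT2G18690 formed a run of 3, with differences of 6.4, 1.45 and 4.04, and AT2G18690 had 108 FPKM in TFIISmut induced, 5.6 FPKM in TFIIS induced, 5.09 FPKM in TFIISmut mock and 10.5 FPKM in TFIIS mock. UGT73C4, UGT73C3, the RNA AT2G36792 and UGT73C6 formed a run in which the RNA overlaps UGT73C6. These genes were named after their values were seen.

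Fewer genes were called between the lines without estradiol, and most of these were not called in the same direction between the induced pools. Some mock differences were large, mainly on the lower side. Between the mock pools 4 genes were higher and 33 lower by 2 or more, and 0 against 14 by 3 or more. That 14 equals the number lower by 3 or more between the induced pools. Of 13863 genes compared in both, 469 were higher between the induced pools and 32 between the mock pools, with 10 in common (2.13% of the first and 31.2% of the second), while 20 of the 469 were lower between the mock pools. Of 344 genes lower between the induced and 80 between the mock pools, 12 were shared (3.49% and 15%). These shares stood above those over all genes compared. Of 14619 genes, 5.34% were higher and 2.57% lower between the induced pools. Of 14113 genes, 0.248% were higher and 0.787% lower between the mock pools. The 20 genes that went opposite ways, 4.26% of the 469, also lay above that 0.787%. RABA4A, a small GTPase of secretion, had 64.9 FPKM in TFIISmut induced, 10.6 FPKM in TFIIS induced, 58.7 FPKM in TFIISmut mock and 9.94 FPKM in TFIIS mock. Both TFIISmut pools were high and both TFIIS pools low, while its neighbours AT5G65260 and GCL1 differed by 0.32 and 0.22 between the induced pools. anac044 had 29 FPKM in TFIISmut induced, 2.22 FPKM in TFIIS induced, 6.66 FPKM in TFIISmut mock and 2.6 FPKM in TFIIS mock, and was called higher in both comparisons. AT5G23240, a DNAJ protein, had 5.87 FPKM in TFIISmut induced, 38.7 FPKM in TFIIS induced, 15.7 FPKM in TFIISmut mock and 46.5 FPKM in TFIIS mock, and AT1G65541, an uncharacterized gene, had 7.04 FPKM in TFIISmut induced, 54.2 FPKM in TFIIS induced, 23.1 FPKM in TFIISmut mock and 59.5 FPKM in TFIIS mock. In both, the TFIISmut line was lower with and without estradiol. Genes of abscisic acid, drought and cold response differed as a list between the mock pools, where 13 of 18 were lower in TFIISmut mock (median -1.82). Between the induced pools 2 were higher and 3 lower (median -0.04). RAB18, a dehydrin, had 6.76 FPKM in TFIISmut induced, 2.39 FPKM in TFIIS induced, 1.78 FPKM in TFIISmut mock and 119 FPKM in TFIIS mock, and COR15A, a cold-regulated chloroplast protein, had 28 FPKM in TFIISmut induced, 59.1 FPKM in TFIIS induced, 30.8 FPKM in TFIISmut mock and 559.9 FPKM in TFIIS mock. TFIIS mock was the high pool in both. COR15A was called lower in both comparisons, with -4.14 between the mock pools and -1.05 between the induced pools.

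Other hormone and metabolite lists showed single genes rather than shifts. Ethylene synthesis and signalling had 2 of 20 higher, the synthases ACS2 (2.46) and ACS6 (1.48), with a median of 0.04. Jasmonate synthesis and response had 2 of 24 higher and 2 lower, with a median of -0.14. TAT3 differed by 2.29, and the defensin PDF1.2A, a marker of the jasmonate and ethylene response, had 5.38 FPKM in TFIISmut induced, 15.5 FPKM in TFIIS induced, 7.84 FPKM in TFIISmut mock and 10.7 FPKM in TFIIS mock. Flavonoid and anthocyanin genes had 1 of 6 higher, GSTF12 (1.05), and a median of -0.24.

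Tissue markers were summed per pool; fewer cells of a type and less RNA per cell cannot be told apart in whole seedlings. Summed over 17 root markers the FPKM were 70.4 in TFIISmut induced and 92.6 in TFIIS induced, beside 94.5 in TFIISmut mock and 97.5 in TFIIS mock. The sums were 308, 365, 383 and 364 FPKM, in the same order of pools, over 19 markers of epidermis and stomata, 321, 433, 453 and 438 over 16 of phloem and xylem, and 72.2, 81.8, 83.8 and 81.9 over 17 of meristem. TFIISmut induced had the lowest sum of each list. In the meristem list, however, only CLV1 (-0.88), SOC1 (-0.50) and AS1 (-0.25) differed by less than 0 between the induced pools. All its other markers lay above 0, among them STM (0.48), ANT (0.38) and KNAT1 (0.38), most of them with few FPKM. Only KAT1 and MYB60, both guard cell genes, were called, and both were lower; KAT1 (AT5G46240) had 1.92 FPKM in TFIISmut induced, 6.88 FPKM in TFIIS induced, 7.03 FPKM in TFIISmut mock and 9.17 FPKM in TFIIS mock. No marker was at 0 in any pool except 1 meristem marker in TFIIS induced. The medians were -0.42 for root, -0.26 for epidermis and stomata, -0.27 for phloem and xylem and -0.25 for meristem, over 7, 15, 12 and 5 members that reached 5 FPKM. The part of cell composition in the differences above was not tested.

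The threshold cuts through a continuous range. The genes just inside it on the higher side, NAC062, AT1G62350 and PER54, had 24.7, 32 and 5.46 FPKM in TFIISmut induced against 11.9, 15.5 and 2.22 FPKM in TFIIS induced. Just outside, P4H7, PBD2 and AT1G14060 had 35.1, 179 and 66.4 FPKM against 17, 89.1 and 32.7 FPKM. On the lower side, AT2G37750, FBP (AT1G43670) and TIP2-1 were just inside, with 8.5, 61 and 257 FPKM in TFIISmut induced against 18, 123 and 518 FPKM in TFIIS induced. AT1G78260, ERD4 and AT5G52882 were just outside, with 5.04, 61.1 and 15 FPKM against 11.1, 123 and 31 FPKM. The minimum level acted as a filter too: 820 genes entered only through TFIISmut induced, 381 of them called higher, and 703 only through TFIIS induced, 114 of them called lower.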

How the data were processed

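RNA was extracted with RNeasy columns and sequenced from stranded mRNA libraries, per the labels' protocols. Reads were aligned with Bowtie2 2.3.5, per the submitters' processing notes. Neither labels nor file name the genome build, the annotation, the counting of strand or the tool that made the values. The deposited table holds 1 FPKM value per gene and group; the authors combined the 3 libraries of each group, and the unit was inferred from the values, since the file names none. Groups were read from the column names. Sequencing depth is unknown, and no counting interval was computed.

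Here, 38 of 32705 rows that repeat 19 identifiers were left out, then rows at 0 in either induced pool and genes under 5 FPKM in both. Differences are of log2(FPKM + 1), and a size of 1 or more is called. The named genes are the 15 largest and the 15 most negative differences, the extreme organelle and non-coding rows, up to 4 called members per list, 5 genes called in both comparisons and the genes beside the threshold; members and genes named beyond this were chosen after their values were seen. Members, the 47 lists and the motifs were chosen with earlier results of these data known. Names, positions and promoters came from RefSeq's annotation of TAIR10.1, which matched 32045 identifiers; no coordinates were taken from the deposited table. Python 3.11.15, pandas 2.3.3, NumPy 2.4.6 and matplotlib 3.10.9 were used, and the scripts were tested on simulated data.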

Additional observations from a re-analysis of the deposited data

How the results depend on the processing

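No called gene named by the rule changed direction under the alternatives tried. Rescaling moved the median difference between the induced pools by about 0.15 at most, far less than the 1 needed for a call. A change of direction was therefore hardly possible, and its absence is no sign of stability. A minimum of 20 FPKM left 420 genes higher and 230 lower between the induced pools and 15 higher and 54 lower between the mock pools, since fewer genes were compared. A threshold of 2 on the log2 scale left 262 higher and 50 lower between the induced pools. Between the mock pools, 23 genes were higher without organelle rows and after rescaling, 23 without short transcripts and 15 without both; the cause was not tested. With both left out, the induced pools gave 585 higher and 515 lower, and quantile scaling gave 703 and 446. Without the 20 most abundant genes, 11 named genes dropped below the threshold, among them SGR1, NAC062, RPP13L4, NRPB9A, GSTF12 and PER54, and the list medians of ethylene, glucosinolate, P450 and UDP-glycosyltransferase genes turned below 0. A list median was counted as moved beyond a tolerance of 0.18. By that count the list medians depended most on the minimum FPKM: dropping it moved 14 of 47 and a minimum of 20 FPKM moved 11. Leaving out the 20 most abundant genes moved 0. That setting shifted the median of all genes by -0.14, inside the tolerance, so its count of 0 does not show that the list medians were unaffected. With no minimum, salicylic acid outputs had a median of 2.03, the mitochondrial list 1.19, salicylic acid synthesis 1.2, heat shock 0.32, calmodulins 0.48, U-box ligases 0.04 and meristem markers 0.17. With a minimum of 20 FPKM, DNA damage had 1.85, polymerase subunits 0.71, MATE transporters 1.16, autophagy 0.31, intracellular immune receptors 0.15, abscisic acid response -0.32 and root markers -0.92. No paired analysis was possible because each group has 1 pooled column. Leaving out single libraries and a replicate block could not be run on 1 pooled value per group, and unknown depth limits every value of a few FPKM.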
